A study of Mus musculus with 6 samples.

Results

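Mouse astrocytes that had been freed of a GSK-3 inhibitor were compared with astrocytes that had never met it, on 4 of the 6 arrays of the series, 2 for washed-out cultures (washout) and 2 for cultures without inhibitor (control). These 4 arrays were taken by the treatment given in their labels, with no measured value involved. All cultures were wild-type C57BL/6J astrocytes prepared from cortex and striatum of pups on postnatal day 1, grown in medium with 10% serum, and exposed for 2 days to 5 µM of cytosine arabinoside, which kills dividing cells. From 13 days in vitro, the washout cultures were given Ro3303544, an inhibitor of GSK-3, at 1 µM. It was withdrawn after 48 h, and another 48 h passed before harvest. The labels give control medium for the control cultures, while the protocol mentions an equivalent amount of the solvent DMSO, and which of these the control arrays received is not settled. The remaining 2 arrays (Ro) came from cultures taken at the end of the 48 h with inhibitor. Harvest fell at 15 days in vitro for control and Ro and at 17 for washout, with no control of that age. Of the 2 slides, 1 carried control and Ro and the other carried washout alone. The effects of washout, of culture age and of the slide therefore cannot be told apart in any result that follows. The labels do not say whether the 2 arrays of a group came from separate cultures, so that p-values measure the spread between these arrays, which may be technical.

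GSK-3 is a kinase that marks beta-catenin for degradation within a complex built around Axin and APC. When it is inhibited, beta-catenin accumulates and, with TCF/LEF proteins, switches on Wnt target genes, several of which encode brakes on the same pathway. GSK-3 also phosphorylates transcription factors, cytoskeletal proteins and metabolic enzymes, so that its inhibition reaches beyond Wnt signalling. The question put to these cultures was which transcripts still differ from those of astrocytes without inhibitor once the drug has been removed.

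Levels are given as the log2 of the processed spot intensity minus the 75th percentile of the array, and differences as washout minus control on that log2 scale ± the standard error from limma, so that 1 is a 2-fold difference. Features (genes, or accessions without a symbol) were kept if their probe stood well above background on both control or both washout arrays. Of the 19636 kept, 848 were higher and 1240 lower in washout at a Benjamini-Hochberg adjusted p under 0.05 in limma's moderated test. These are 4.32% and 6.31% of the features tested, the background against which each gene group is read. Of them 175 and 254 differed at least 2-fold, and the median absolute difference over all features was 0.17. In the same test, 5698 of the 19636 features had an unadjusted p under 0.05, in either direction. Counts at an unadjusted p are read against that number. The split depended on scaling: centring the arrays on their medians gave 630 higher and 1441 lower, with a median of -0.061 over all features. Values from the authors' deposited table gave 586 higher and 1470 lower, with a median of -0.0734. Levels of the Ro arrays are set beside those of washout as a description, since both groups are compared with the same control arrays. Without control 1, 183 features were higher and 338 lower, without control 2 the counts were 91 and 121, without an Ro array 402 and 582, without washout 1 they were 333 and 527, and without washout 2 624 and 785. In all, 76 rises and 97 falls were called whichever array was left out. For a single value, the smallest two-sided p that exact permutation of these 4 arrays allows is 0.333.

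Replicate arrays correlated across features at r = 0.996 in control and 0.993 in washout, and control with washout arrays at 0.985 to 0.986. Patches in which dim spots were raised, called bright regions, covered 4.41% of the spots of washout 1, 0.917% of washout 2 and at most 0.463% of the other arrays. Dim probes there had a median level of -3.19 on washout 1 against -7.00 elsewhere on that array. Of the 48 features higher by more than 3 on the log2 scale, 42 had a probe in such a region, and all 48 were not well above background on either control array. Of all calls, 114 rises and 47 falls had a probe there, and genes of this kind are marked where they are named. Among calls of at least 2-fold, 78 of the 175 rises and 7 of the 254 falls had one. Over all features the share was 5.8%.

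**Figure D1:**
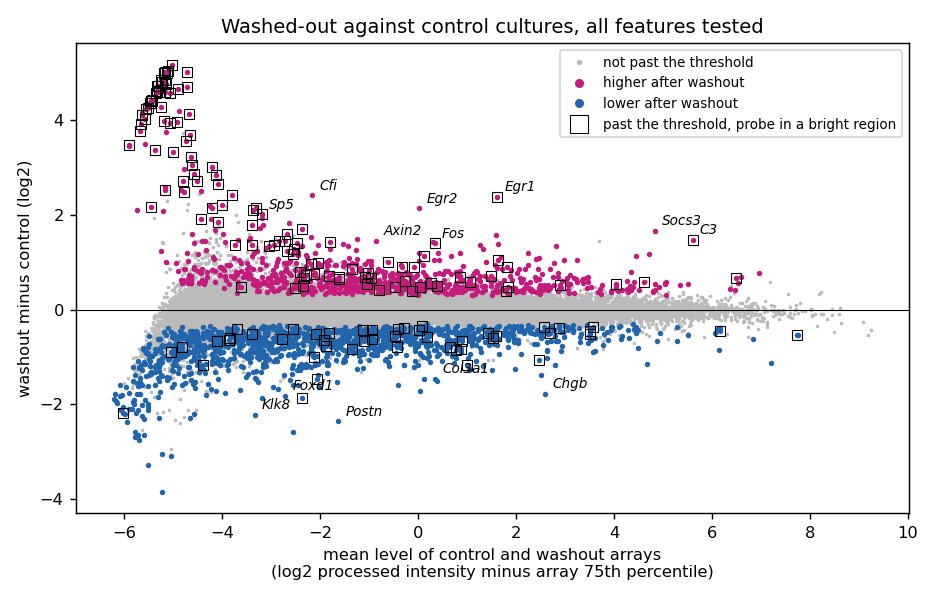
Difference between washout and control (vertical axis, log2) against the mean level of the 4 arrays (horizontal axis, log2 processed intensity minus the 75th percentile) for each of the 19636 features tested. Coloured points passed the test, 848 of them higher and 1240 lower, and open squares mark called features whose probe lay in a bright region, which make up most of the group at the upper left.

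**Figure D2:**
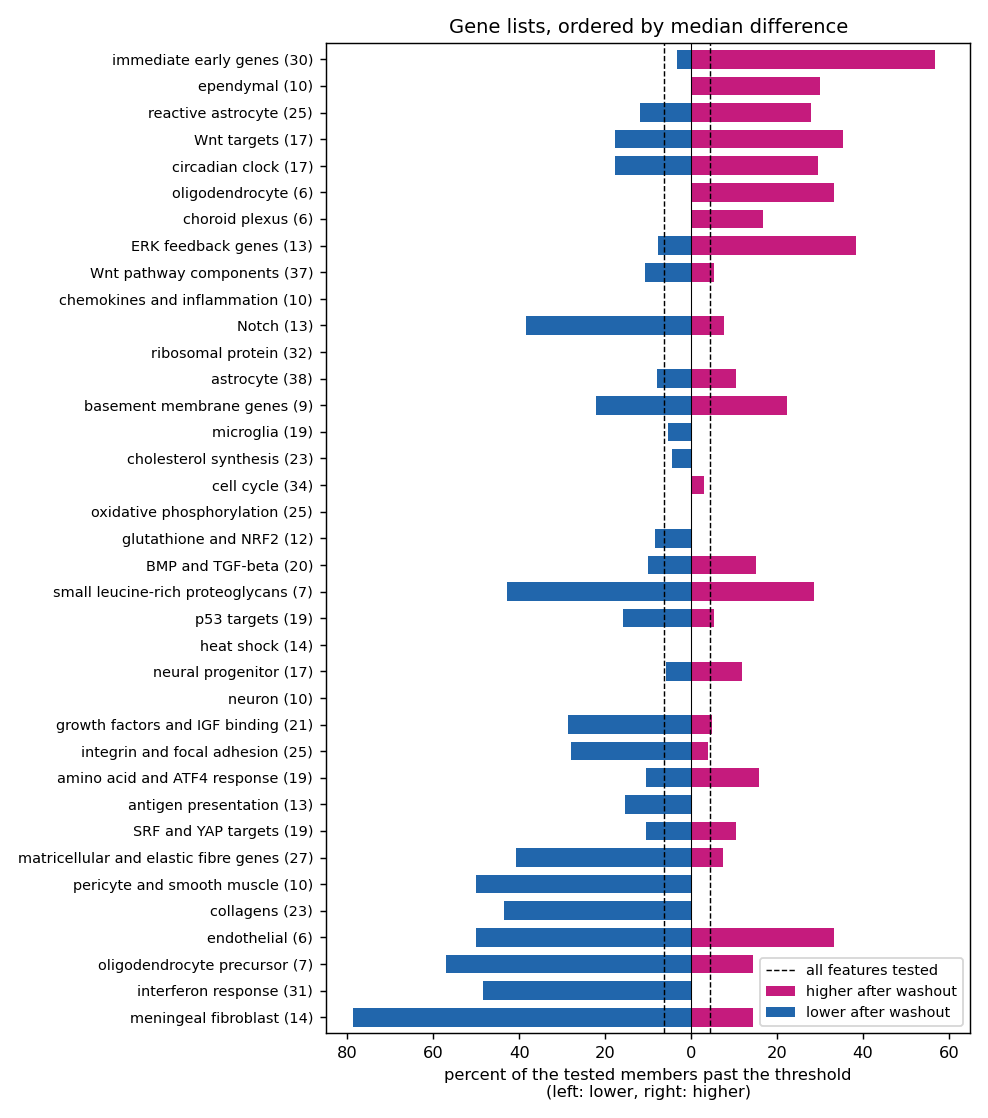
Share of the tested members of each of the 37 gene lists that were higher (right) or lower (left) in washout, in percent, with the number tested in brackets and dashed lines at 4.32% and 6.31%, the shares over all features. Immediate early genes stand farthest to the right, and meningeal fibroblast, oligodendrocyte precursor, pericyte, endothelial and interferon lists reach farthest to the left.

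Transcripts of the pathway's own kinase and effector were close to control. Gsk3a, one of the GSK-3 genes, lay at -2.92 and -2.61 in control and -2.81 and -2.69 in washout, a difference of 0.017 ± 0.12 (adjusted p = 0.94). Gsk3b, the other, lay at -1.40 and -1.32 in control and -1.73 and -1.31 in washout, a difference of -0.16 ± 0.15 (adjusted p = 0.54). Ctnnb1, which encodes beta-catenin, differed by -0.0091 ± 0.068 (adjusted p = 0.95). The arrays of the groups overlapped or nearly touched for all 3. Transcript levels do not report the activity of these proteins.

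Wnt target genes were raised in part. Of 17 tested members of a list of 22, 6 were higher and 3 lower in washout, with a median difference of 0.11 against -0.0121 over all features. Sp5, a transcriptional repressor induced by beta-catenin, had levels of -4.19 and -4.22 in control, 3.98 and 4.07 in Ro and -2.14 and -2.23 in washout. Both washout arrays stood 4.06-fold above control (2.02 ± 0.076, adjusted p = 0.0025) and far below Ro. Axin2, a scaffold of the destruction complex and a widely used readout of the pathway, was measured at -1.73 and -1.44 in control, 2.76 and 2.66 in Ro and -0.20 and -0.042 in washout, a rise of 1.46 ± 0.13 (adjusted p = 0.0074). Tnfrsf19, a TNF receptor family member and known beta-catenin target, was at 1.70 and 1.58 in control, 6.48 and 6.54 in Ro and 2.90 and 2.76 in washout (1.19 ± 0.087, adjusted p = 0.0055). For all 3 genes the washout arrays stood above both control arrays and below both Ro arrays, without overlap. Over all features, washout stood above control without overlap for 26.8% and below it for 29.7%. None of the 25 dim spots around the Sp5 probe was raised on the washout slide.

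Differences from control were smaller for several feedback inhibitors. Nkd1, which binds Dishevelled, rose by 0.62 ± 0.073 (adjusted p = 0.013), with levels of -0.24 and -0.29 in control, 5.41 and 5.32 in Ro and 0.33 and 0.37 in washout. Rnf43, a ubiquitin ligase that removes Frizzled receptors, rose by 0.77 ± 0.13 (adjusted p = 0.03), with -4.81 and -4.82 in control, 1.16 and 1.16 in Ro and -3.86 and -4.23 in washout. Both were near control when set beside the Ro arrays. Notum, a secreted enzyme that inactivates Wnt ligands, lay at -2.47 and -2.45 in control, 3.51 and 3.48 in Ro and -2.16 and -1.89 in washout, a difference of 0.44 ± 0.11 that did not pass the test (adjusted p = 0.065). Znrf3, the partner of Rnf43, differed by 0.23 ± 0.091 (adjusted p = 0.18) and Tcf7, a TCF/LEF factor, by -0.031 ± 0.068 (adjusted p = 0.8). Lef1, another factor of that family, stood at -3.83 and -3.37 in control, 1.15 and 1.11 in Ro and -4.49 and -4.05 in washout and thus nominally under control (-0.67 ± 0.21, adjusted p = 0.11). The rises numbered 3 without control 1, 3 without control 2, 4 without an Ro array, 7 without washout 1 and 5 without washout 2. Myc, a growth regulator that is also an immediate early gene, rose by 0.49 ± 0.095 (adjusted p = 0.037) although its Ro values of 0.06 and 0.12 lay under control.

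The falls in the list had little in common. Nkd2, the paralogue of Nkd1, was not well above background on either washout array and was at least 2.65-fold lower than control (adjusted p = 0.0063), with levels of -3.63 and -3.23 in control, -0.25 and -0.28 in Ro and -5.29 and -5.19 in washout. Its Ro values were the highest and its washout values the lowest. Fzd7, a Wnt receptor, fell by 0.76 ± 0.16 (adjusted p = 0.046), but another probe of the gene differed by 0.11 in the opposite direction. Bmp4, a BMP ligand, fell by 0.35 ± 0.071 (adjusted p = 0.044). Wif1, a secreted Wnt inhibitor, lay at -4.39 and -4.57 in control, 0.87 and 0.81 in Ro and -5.03 and -4.71 in washout and did not pass (adjusted p = 0.13). Nor did Lgr6, an R-spondin receptor (-0.30 ± 0.41, adjusted p = 0.67, well above background on 1 of the washout arrays). Apcdd1, Lgr5, Dkk1 and Sp8 were not well above background on both arrays of either group and were not tested. Of the 9 named Wnt target calls, 4 held whichever array was left out (Sp5, Axin2, Tnfrsf19 and Nkd2). Without control 1, 5 were lost (adjusted p 0.058 to 0.14), 5 without control 2 (adjusted p 0.074 to 0.17), 4 without an Ro array (adjusted p 0.065 to 0.11), 2 without washout 1 (adjusted p 0.089 to 0.11) and 2 without washout 2 (adjusted p 0.079 to 0.11).

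Other parts of the pathway include its ligands, receptors and secreted inhibitors. Among 37 tested components 2 rose and 4 fell, or 5.41% and 10.8%. Dkk3, a Dickkopf family glycoprotein, rose by 0.83 ± 0.072 (adjusted p = 0.0075) and the receptor Fzd10 by 0.73 ± 0.067 (adjusted p = 0.0081). The inhibitor Dkk2 (-0.99 ± 0.21) and the ligands Wnt7b (-0.81 ± 0.073), Wnt11 (-0.56 ± 0.12) and Wnt7a (-0.50 ± 0.077) were lower, with adjusted p of 0.045, 0.0079, 0.044 and 0.022. Of the 6 named component calls, none held whichever array was left out. The lost calls were 3 without control 1 (adjusted p 0.089 to 0.13), 6 without control 2 (adjusted p 0.051 to 0.18), 3 without an Ro array (adjusted p 0.059 to 0.09), 3 without washout 1 (adjusted p 0.052 to 0.082) and 1 without washout 2 (adjusted p 0.059).

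**Figure D3:**
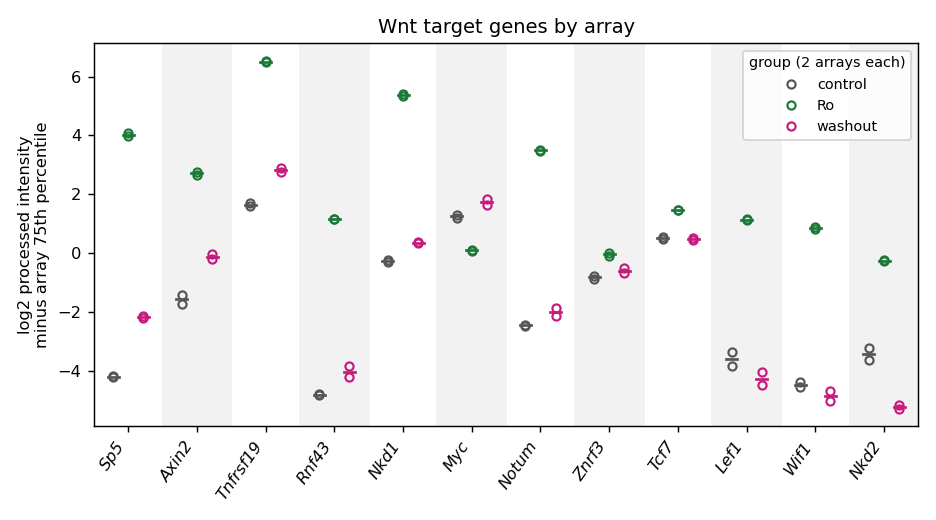
Levels of 12 Wnt target genes on each array (open circles, 2 a group) with group means (bars), for control (grey), Ro (green) and washout (pink), in log2 processed intensity minus the 75th percentile. Sp5, Axin2 and Tnfrsf19 in washout lie above control and below Ro, whereas Tcf7, Lef1 and Wif1 lie at or under control.

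Upstream sequences of Sp5 and Tnfrsf19 are shown because they are the called members of the list whose 250 bases before the gene start hold the TCF/LEF core CTTTGAT on either strand, in capitals (RefSeq, GRCm38.p6, gene strand). The core was found for 2 of the 5 raised members with an entry and in 3.72% of all 27025 genes in the table. It begins 104 bases before the start of Sp5 (chr2:70474673-70474922, plus strand) and 202 before that of Tnfrsf19 (chr14:61037988-61038237, minus strand). A match describes letters in this window and says nothing of binding.
Sp5: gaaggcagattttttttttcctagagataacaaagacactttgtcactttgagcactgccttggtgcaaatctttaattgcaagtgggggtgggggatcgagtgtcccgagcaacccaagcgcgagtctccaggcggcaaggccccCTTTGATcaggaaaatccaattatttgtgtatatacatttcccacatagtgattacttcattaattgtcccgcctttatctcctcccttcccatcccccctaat
Tnfrsf19: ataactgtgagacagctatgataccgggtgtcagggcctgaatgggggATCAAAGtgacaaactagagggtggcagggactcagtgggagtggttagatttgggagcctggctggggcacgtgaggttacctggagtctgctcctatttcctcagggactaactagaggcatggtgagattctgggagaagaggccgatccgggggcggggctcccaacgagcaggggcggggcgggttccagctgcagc

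Immediate early genes, the first transcripts that cells make after a stimulus, were the gene group with the largest share of rises. Of 30 tested members 17 were higher and 1 lower in washout, with a median of 0.54, and the rises numbered 9 without control 1, 7 without control 2, 15 without an Ro array, 14 without washout 1 and 15 without washout 2. The median was positive under every scaling and filter tried. At the end of inhibitor treatment, measured against the same control arrays, 11 were higher and 12 lower, where 18.8% and 23.5% of all features were. The zinc finger factors Egr1, Egr2 and Egr4 led, and Egr3 of the same family was not tested. Egr1 had levels of 0.48 and 0.37 in control, 2.19 and 2.14 in Ro and 2.85 and 2.77 in washout. Egr2 lay at -1.06 and -1.04 in control, 0.16 and 0.049 in Ro and 1.1 and 1.1 in washout, and Egr4 at -4.09 and -4.24 in control, -3.55 and -3.59 in Ro and -2.33 and -2.13 in washout. In each the 3 groups did not overlap and stood in the order control, Ro, washout. The differences from control were 2.39 ± 0.078 for Egr1 (5.22-fold, adjusted p = 0.0025), 2.14 ± 0.074 for Egr2 (4.42-fold, adjusted p = 0.0025) and 1.93 ± 0.1 for Egr4 (adjusted p = 0.0039). The Egr1 probe is a single spot in the bright region of washout 1, where 95% of dim probes lay under -2.31, and its level on washout 2, outside such a region, was 2.77.

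The AP-1 subunits, which pair to form a transcription factor, did not move as one. Fos lay at -0.33 and -0.41 in control, -0.62 and -0.55 in Ro and 1.07 and 1.01 in washout, a rise of 1.41 ± 0.073 (adjusted p = 0.0039), with some of its 10 spots in the bright region of washout 1. Junb, a Jun family subunit, stood at 3.88 and 3.87 in control, 3.78 and 3.89 in Ro and 5.04 and 5.00 in washout (1.14 ± 0.075, adjusted p = 0.0051). The Ro arrays overlapped with control for Junb and lay below it for Fos, and in both genes only the washout arrays stood high. Fosl2, a Fos relative, was higher by 0.78 ± 0.08 (adjusted p = 0.01). Fosb (-0.29 ± 0.17, adjusted p = 0.32), Jun (0.15 ± 0.069, adjusted p = 0.21, probe in a bright region) and Jund (-0.23 ± 0.082, adjusted p = 0.14) did not pass the test.

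The other rapid-response genes that passed the test rose with 1 exception, and 12 of the 30 tested members did not pass. Nr4a1, an orphan nuclear receptor, was at 1.77 and 1.77 in control, 2.14 and 2.12 in Ro and 2.72 and 2.72 in washout (0.95 ± 0.065, adjusted p = 0.0052). Arc, a cytoskeleton-associated protein best known from synapses, rose by 1.03 ± 0.091 (adjusted p = 0.0077). Zfp36, an RNA-binding protein that destabilises cytokine mRNAs, lay at -0.55 and -0.63 in control, -0.78 and -0.60 in Ro and 0.67 and 0.53 in washout (1.19 ± 0.099, adjusted p = 0.007). Ier2 rose by 0.93 ± 0.098 (adjusted p = 0.011). Ier3, a stress-induced survival gene, differed from these in its Ro values, with levels of 0.19 and 0.30 in control, 2.50 and 2.56 in Ro and 1.39 and 1.52 in washout (1.21 ± 0.085, adjusted p = 0.0052). Here the washout arrays lay between control and Ro. Smaller rises were those of the serum response factor gene Srf (0.79 ± 0.088), the phosphatase gene Dusp1 (0.58 ± 0.08), the small Maf factor Maff (0.63 ± 0.067), the stress factor Atf3 (0.65 ± 0.081), Myc (0.49) and the kinase gene Sgk1 (0.46 ± 0.075), with adjusted p from 0.012 to 0.037. Klf4, a Krüppel-like factor, was the member that fell (-0.34 ± 0.075, adjusted p = 0.049). Of the 18 named immediate early calls, 7 held whichever array was left out (Egr1, Egr2, Egr4, Fos, Junb, Nr4a1 and Ier3). Lost from these were 9 without control 1 (adjusted p 0.052 to 0.14), 11 without control 2 (adjusted p 0.053 to 0.17), 3 without an Ro array (adjusted p 0.07 to 0.12), 4 without washout 1 (adjusted p 0.0502 to 0.11) and 3 without washout 2 (adjusted p 0.052 to 0.11).

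ERK feedback genes, which are induced by the ERK kinase cascade and restrain it, gave 5 rises and 1 fall among 13 tested. The list did not rise as a whole, with 7 positive and 6 negative differences and a median of 0.026. That median was -0.11 with normexp background, -0.023 under median centring and -0.035 in the authors' deposited table. Spry4, a Sprouty inhibitor of receptor tyrosine kinase signalling, stood at -4.29 and -3.83 in control, -3.86 and -4.11 in Ro and -2.30 and -2.23 in washout, so that control and Ro overlapped and the washout arrays were 3.47-fold above control (1.80 ± 0.18, adjusted p = 0.0092). Its relative Spry1 rose by 0.45 ± 0.076 (adjusted p = 0.028) and Spry2 differed by 0.22 ± 0.067 (adjusted p = 0.1). Dusp6, the cytoplasmic ERK phosphatase, lay at 5.02 and 5.13 in control, 3.89 and 3.97 in Ro and 5.62 and 5.58 in washout (0.53 ± 0.078, adjusted p = 0.021). Its Ro arrays were the lowest and its washout arrays the highest. Phlda1 (1.07 ± 0.089, adjusted p = 0.0071) and Errfi1, an inhibitor of the EGF receptor (0.71 ± 0.082, adjusted p = 0.012), also rose, while Etv4, an ETS factor, fell (-0.59 ± 0.072, adjusted p = 0.014). Of the 6 named ERK feedback calls, 1 held whichever array was left out (Spry4). The calls lost were 3 without control 1 (adjusted p 0.068 to 0.096), 5 without control 2 (adjusted p 0.051 to 0.12), 2 without an Ro array (adjusted p 0.057 to 0.066), 2 without washout 1 (adjusted p 0.072 to 0.088) and 2 without washout 2 (adjusted p 0.054 to 0.056).

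Upstream sequences of 4 raised immediate early genes are printed because each holds a known response element within the 250 bases before its start. The CArG box, bound by serum response factor, was found in 3 of 13 raised members with an entry and in 1.62% of all genes. The cAMP response element TGACGTCA was found in 2 of them, in 1.77% of all genes and in 2.91% of the genes tested. The EGR site GCGTGGGCG was found in 1 of them, in 0.622% of all genes and in 1.13% of the genes tested. Motifs searched for the other lists were also found in these members, the interferon-stimulated response element in 3 (in 3.46% of all genes) and the TCF/LEF core in 1. Capitals mark the CArG boxes of Egr2 (chr10:67537316-67537565, plus strand), Zfp36 (chr7:28379229-28379478, minus strand) and Srf (chr17:46556163-46556412, minus strand) and the cAMP response element of Dusp1 (chr17:26508473-26508722, minus strand), read on either strand and printed on the gene's strand (RefSeq, GRCm38.p6). Srf has 2 boxes, and the Egr2 window belongs to 1 of its several annotated starts.
Egr2: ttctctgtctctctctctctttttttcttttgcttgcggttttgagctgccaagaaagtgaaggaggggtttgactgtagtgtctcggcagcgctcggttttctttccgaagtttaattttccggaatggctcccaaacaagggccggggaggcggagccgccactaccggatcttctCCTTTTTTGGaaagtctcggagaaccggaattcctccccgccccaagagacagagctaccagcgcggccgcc
Zfp36: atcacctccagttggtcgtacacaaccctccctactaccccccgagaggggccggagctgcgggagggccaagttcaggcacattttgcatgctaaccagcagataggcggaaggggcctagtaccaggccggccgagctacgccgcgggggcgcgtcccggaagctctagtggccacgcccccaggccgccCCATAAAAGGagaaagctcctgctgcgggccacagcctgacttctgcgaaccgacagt
Srf: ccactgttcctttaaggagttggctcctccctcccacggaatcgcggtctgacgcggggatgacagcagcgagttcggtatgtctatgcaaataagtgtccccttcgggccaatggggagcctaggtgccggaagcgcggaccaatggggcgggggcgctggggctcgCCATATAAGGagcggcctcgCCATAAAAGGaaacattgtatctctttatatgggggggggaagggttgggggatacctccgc
Dusp1: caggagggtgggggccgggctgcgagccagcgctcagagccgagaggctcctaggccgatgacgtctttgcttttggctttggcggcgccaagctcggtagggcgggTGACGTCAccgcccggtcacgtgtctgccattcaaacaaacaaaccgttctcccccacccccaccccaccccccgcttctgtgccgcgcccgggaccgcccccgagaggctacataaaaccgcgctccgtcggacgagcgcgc

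Several of the larger rises belonged to the acute phase and to complement, a grouping made after their values had been seen. Socs3, a feedback inhibitor of cytokine signalling through JAK and STAT3, lay at 4.01 and 3.96 in control, 3.96 and 4.05 in Ro and 5.69 and 5.63 in washout, a rise of 1.67 ± 0.075 (3.19-fold, adjusted p = 0.0031). C3, the central complement protein and a reactive astrocyte gene, was at 4.92 and 4.81 in control, 3.10 and 3.34 in Ro and 6.40 and 6.29 in washout (1.48 ± 0.11, adjusted p = 0.0055, some spots of its probe in the bright region of washout 1). Cfi, complement factor I, stood at -3.32 and -3.41 in control, -2.09 and -1.94 in Ro and -0.92 and -0.98 in washout (2.42 ± 0.087, adjusted p = 0.0025). In all 3 genes the washout arrays were the highest, with Ro level with control for Socs3, under it for C3 and above it for Cfi. Lbp, the plasma protein that binds bacterial lipopolysaccharide, rose by 1.57 ± 0.12 (adjusted p = 0.0064) and Hp, haptoglobin, which binds free haemoglobin, by 1.51 ± 0.096 (adjusted p = 0.0048). Levels were 0.87 and 0.73 in control and 2.45 and 2.30 in washout for Lbp and -4.13 and -4.26 in control and -2.69 and -2.68 in washout for Hp.

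Among 25 tested reactive astrocyte genes 7 were higher and 3 lower (median 0.12, and -0.014 with normexp background). The split depended on scaling, with 5 higher and 5 lower under median centring and 5 and 6 in the authors' deposited table. Besides C3 the rises were Steap4, a metalloreductase (1.24 ± 0.21), Serping1, the inhibitor of complement C1 (0.96 ± 0.11), the lipocalin Lcn2 (0.69 ± 0.14), Osmr, the oncostatin M receptor (0.49 ± 0.079), ceruloplasmin, Cp (0.46 ± 0.079), and Srgn, a granule proteoglycan (0.36 ± 0.077), with adjusted p from 0.012 to 0.046. Sphk1, a sphingosine kinase, fell, with 1.61 and 1.75 in control and 0.44 and 0.37 in washout (-1.28 ± 0.089, adjusted p = 0.0052), as did Cd14 (-0.65 ± 0.098, adjusted p = 0.022) and Cd109 (-0.46 ± 0.076, adjusted p = 0.028). Gfap and Vim, the intermediate filaments that define reactive astrocytes in tissue, differed by 0.055 ± 0.086 and -0.066 ± 0.15 (adjusted p = 0.72 and 0.81). Cebpd, an acute-phase transcription factor (0.70 ± 0.09), and C4b (0.64 ± 0.093) were looked up after the values of this group had been seen, and rose with adjusted p of 0.015 and 0.021. Of the 16 named acute-phase and reactive calls, 5 held whichever array was left out (Cfi, Socs3, C3, Hp and Sphk1). Without control 1, 9 were lost (adjusted p 0.053 to 0.16), 11 without control 2 (adjusted p 0.051 to 0.17), 8 without an Ro array (adjusted p 0.0501 to 0.11), 9 without washout 1 (adjusted p 0.053 to 0.13) and 6 without washout 2 (adjusted p 0.054 to 0.084).

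**Figure D4:**
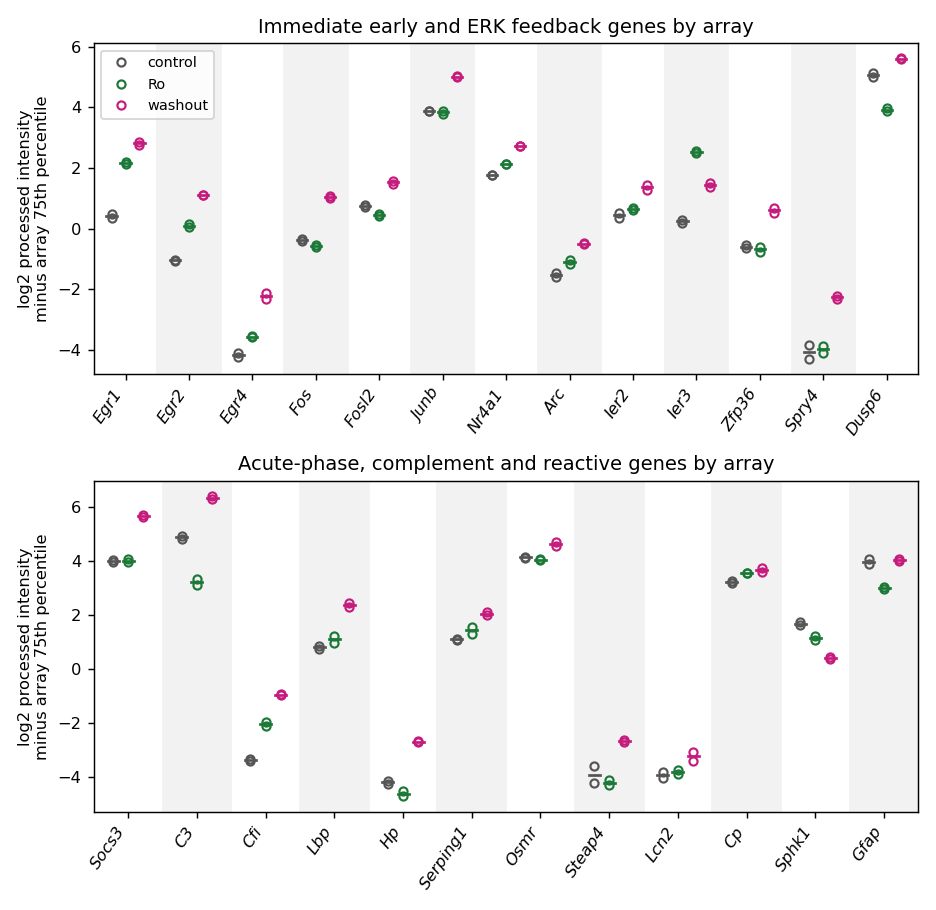
Levels on each array (open circles) and group means (bars) of immediate early and ERK feedback genes (upper panel) and of acute-phase, complement and reactive genes (lower panel), in log2 processed intensity minus the 75th percentile, for control (grey), Ro (green) and washout (pink). The washout arrays are the highest for Egr1, Fos, Junb, Spry4, Socs3, C3 and Cfi, and Gfap lies level with control.

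The largest remaining rises that were measured in both groups and lay outside bright regions had no list in common. Hes1, a Notch-regulated repressor of the neural progenitor list, was at -3.36 and -3.74 in control, -3.55 and -3.76 in Ro and -1.90 and -1.54 in washout (1.83 ± 0.19, adjusted p = 0.01). Cd5l, a secreted scavenger receptor protein, rose by 1.72 ± 0.17 (adjusted p = 0.0098), the kinase gene Hipk4 by 1.69 ± 0.18 (adjusted p = 0.011) and Ugt2b5, a glucuronosyltransferase, by 1.48 ± 0.28 (adjusted p = 0.035). Cd5l lay at -4.16 and -4.02 in control, -3.94 and -3.56 in Ro and -2.21 and -2.54 in washout, so that, as for Hes1, the washout arrays alone stood high. None of the dim spots around these 4 probes (19, 17, 16 and 20) was raised on the washout slide. Of the 4 calls on these genes, 1 held whichever array was left out (Hipk4). The lost calls were 2 without control 1 (adjusted p 0.054 to 0.082), 3 without control 2 (adjusted p 0.057 to 0.14), 1 without washout 1 (adjusted p 0.12) and 1 without washout 2 (adjusted p 0.09).

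Of 23 tested collagens 10 fell and 0 rose, with a median of -0.51, and at an unadjusted p under 0.05 15 were lower and 2 higher. The median stayed between -0.52 and -0.40 whichever array was left out, while the falls numbered 4 without control 1, 1 without control 2, 4 without an Ro array, 1 without washout 1 and 4 without washout 2. Col3a1, a fibrillar collagen typical of fibroblasts, stood at 1.00 and 1.15 in control, -0.48 and -0.56 in Ro and -0.49 and -0.27 in washout, and both inhibitor-exposed groups lay well under control (-1.46 ± 0.11, adjusted p = 0.0055). Col1a1, a chain of type I collagen, was at 2.79 and 3.21 in control, 2.95 and 2.79 in Ro and 1.78 and 2.09 in washout, where only the washout arrays were low (-1.07 ± 0.18, adjusted p = 0.028, probe in a bright region on washout 1). Its partner chain Col1a2 fell by 0.77 ± 0.13 (adjusted p = 0.03). The cartilage collagen Col2a1 (-0.99 ± 0.14), Col6a2 (-0.73 ± 0.096) and Col18a1, the precursor of endostatin (-0.69 ± 0.11), were also lower, with adjusted p of 0.02, 0.017 and 0.024.

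Small leucine-rich proteoglycans, which coat collagen fibrils, split. Lum lay at -2.53 and -2.46 in control, -2.22 and -2.11 in Ro and -3.92 and -4.13 in washout (-1.53 ± 0.1, adjusted p = 0.0051). Dcn, decorin, fell by 1.24 ± 0.12 (adjusted p = 0.0097) and Bgn, biglycan, fell by 1.11 ± 0.1 (adjusted p = 0.008). Ogn (0.61 ± 0.096, adjusted p = 0.024) and Prelp (0.55 ± 0.074, adjusted p = 0.017) rose, and Fmod, fibromodulin, had 3.30 and 3.20 in control, 0.73 and 0.80 in Ro and 3.13 and 3.14 in washout (adjusted p = 0.38 for washout against control). The 7 tested members gave 2 rises and 3 falls.

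Matricellular and elastic fibre genes fell in 11 of 27 cases and rose in 2 (median -0.42), and the falls numbered 3 without control 1, 2 without control 2, 7 without an Ro array, 7 without washout 1 and 10 without washout 2. Postn, periostin, a matrix protein of fibroblasts, showed the largest fall among genes with a symbol that were well above background on all 4 arrays, with -0.56 and -0.36 in control, -2.34 and -2.21 in Ro and -2.81 and -2.81 in washout (-2.35 ± 0.098, adjusted p = 0.003). Mfap4, a microfibril protein, was at 0.0047 and 0.0034 in control, 0.066 and -0.0019 in Ro and -1.18 and -1.20 in washout, so that control and Ro overlapped and the washout arrays were low (-1.20 ± 0.068, adjusted p = 0.0041). Tgfbi, which is induced by TGF-beta, fell by 1.08 ± 0.11 (adjusted p = 0.01) and the crosslinking enzyme Loxl2 fell by 0.73 ± 0.1 (adjusted p = 0.018). Fbn2, a fibrillin, and Eln, elastin, were not well above background on either washout array and were at least 2.04-fold and 1.64-fold lower (adjusted p = 0.011 and 0.015). Fbln1, fibulin 1, rose by 0.89 (adjusted p = 0.012, probe in a bright region) from its control level towards its Ro level of 1.95 and 1.97, and Spp1, osteopontin, by 0.59 (adjusted p = 0.023). Sparc, a matricellular protein abundant in astrocytes, differed by 0.033 ± 0.08 (adjusted p = 0.82). Among 9 basement membrane genes 2 rose and 2 fell. Lama4, a laminin chain, had -2.68 and -2.72 in control, 1.23 and 1.26 in Ro and -1.45 and -1.54 in washout (1.21 ± 0.072, adjusted p = 0.0044). Lamb2 rose by 0.44 (adjusted p = 0.04), and Lamb1 (-0.92 ± 0.14) and Nid1, nidogen 1 (-0.89 ± 0.12), fell with adjusted p of 0.022 and 0.018. Of the 23 collagen, proteoglycan and matrix genes named with a call, 6 held whichever array was left out (Col3a1, Lum, Bgn, Postn, Mfap4 and Lama4). Lost from these were 10 without control 1 (adjusted p 0.053 to 0.14), 17 without control 2 (adjusted p 0.051 to 0.11), 5 without an Ro array (adjusted p 0.0501 to 0.088), 11 without washout 1 (adjusted p 0.054 to 0.12) and 7 without washout 2 (adjusted p 0.051 to 0.087).

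Several of these genes mark meningeal fibroblasts, a cell type that a cortical preparation can hold. The marker list shares Postn, Lum, Dcn, Col1a1, Col1a2, Col3a1 and Ogn with the collagen, proteoglycan and matricellular lists. Calls on these genes are counted in both places and are not separate results. Of 14 tested markers of that list 11 were lower and 2 higher (median -1.29), the list with the largest share of falls, which numbered 8 without control 1, 5 without control 2, 9 without an Ro array, 8 without washout 1 and 10 without washout 2. Foxd1, a transcription factor of the meninges, stood at -2.04 and -1.58 in control, -3.78 and -3.99 in Ro and -3.71 and -3.54 in washout (-1.82 ± 0.17, adjusted p = 0.0089). Aldh1a2, which makes retinoic acid there, lay at -2.02 and -1.73 in control, -1.66 and -1.84 in Ro and -3.42 and -3.30 in washout (-1.48 ± 0.13, adjusted p = 0.0077). Foxd1 was low in both Ro and washout, and Aldh1a2 in washout alone. Foxc2 was at least 2.2-fold lower (adjusted p = 0.017), and Tbx18 passed the test (adjusted p = 0.011) but was not well above background on either washout array and allows no bound above 1. Igf2, an imprinted growth factor, fell by 0.91 ± 0.089 (adjusted p = 0.0091), with another probe of the gene differing by 0.070 upwards. Twist1 rose (0.75 ± 0.077, adjusted p = 0.01), like Ogn, and Foxc1, a defining factor of the meninges, differed by 0.17 ± 0.073 (adjusted p = 0.21). The markers Slc6a13, Crabp2 and Slc22a6 were not well above background on both arrays of either group. Summed over the tested markers, the log2 level was 5.27 and 5.42 in control and 5.26 and 5.23 in washout, although most members fell. The sum adds the intensities of different probes, so that the brightest probes carry it. Fewer cells of a type and less of its RNA per cell cannot be told apart in these bulk samples, and the part of these cells in the fall of the matrix genes was not tested. Whichever array was left out, 5 falls and 0 rises of the whole list were called. Of the 6 fibroblast markers with a call that were first named in this list, 2 held whichever array was left out (Foxd1 and Aldh1a2). The calls lost were 2 without control 1 (adjusted p 0.052 to 0.054), 4 without control 2 (adjusted p 0.053 to 0.084) and 1 without washout 1 (adjusted p 0.068).

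**Figure D5:**
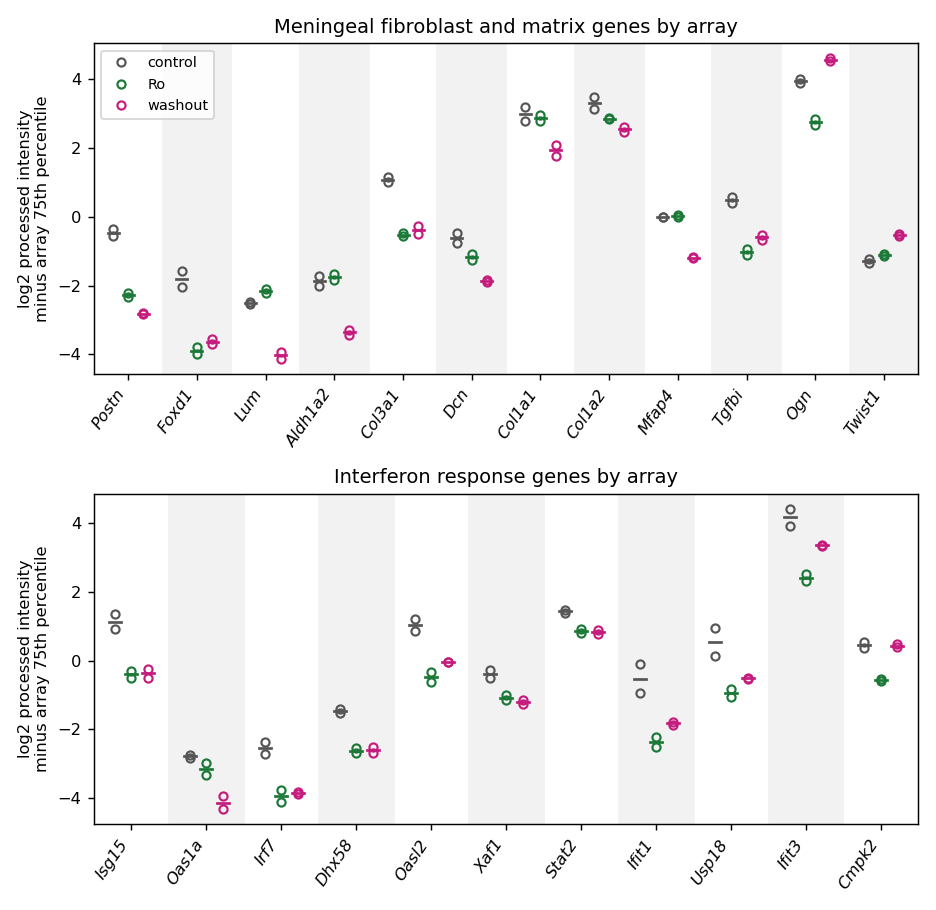
Levels on each array (open circles) and group means (bars) of meningeal fibroblast and matrix genes (upper panel) and interferon response genes (lower panel), in log2 processed intensity minus the 75th percentile, for control (grey), Ro (green) and washout (pink). Postn, Foxd1 and Col3a1 are low in both Ro and washout, Lum, Aldh1a2 and Mfap4 in washout alone, and the 2 control arrays stand apart for Ifit1 and Usp18.

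Markers of other cell types moved unevenly. Pericyte and smooth muscle markers gave 5 falls and no rise among 10, where 0 were higher at an unadjusted p under 0.05 (summed log2 level 9.39 and 9.52 in control and 9.10 and 9.04 in washout). Acta2, smooth muscle actin, was at 7.92 and 8.08 in control, 6.25 and 6.24 in Ro and 7.48 and 7.44 in washout (-0.54 ± 0.082, adjusted p = 0.022, some spots in a bright region). Cspg4, the NG2 proteoglycan of pericytes and oligodendrocyte precursors, was at 0.46 and 0.71 in control, -1.03 and -1.07 in Ro and -0.57 and -0.61 in washout (-1.17 ± 0.1, adjusted p = 0.0075). Both lay between Ro and control. Anpep (-0.94 ± 0.1), Notch3 (-0.55 ± 0.069, probe in a bright region) and Rgs5 (-0.36 ± 0.074) also fell, with adjusted p of 0.011, 0.014 and 0.043. Among 7 tested oligodendrocyte precursor markers 4 fell, including the lineage factors Olig1 (-0.64 ± 0.073, adjusted p = 0.012) and Olig2 (-0.61 ± 0.066, adjusted p = 0.011), which stood at 2.15 and 2.13 in control, 0.10 and 0.11 in Ro and 1.51 and 1.55 in washout. Tnr, tenascin R, was at least 1.33-fold lower (adjusted p = 0.016), and Lhfpl3 rose by 0.48 (adjusted p = 0.031). Of 6 oligodendrocyte markers tested 2 were higher, among them the myelin gene Cldn11 (0.59 ± 0.1, adjusted p = 0.03). The 6 differences were 3 positive and 3 negative, and 2 were lower at an unadjusted p under 0.05 in limma's test. The markers Mog, Ugt8a and Opalin were not tested. Summed log2 levels were 4.65 and 4.66 in control and 4.04 and 3.97 in washout for the precursor list.

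Endothelial markers gave 2 rises and 3 falls among 6 tested, while the defining genes Pecam1, Cdh5, Cldn5, Tek and Tie1 were not well above background on both arrays of either group. Kdr, a VEGF receptor, was at -1.75 and -1.77 in control, 1.26 and 1.45 in Ro and -0.87 and -0.70 in washout (0.97 ± 0.1, adjusted p = 0.01), a level between control and Ro. Slco1a4, an organic anion transporter, rose by 0.46 (adjusted p = 0.034), Emcn, endomucin, was at least 1.81-fold lower (adjusted p = 0.023), and Egfl7 (-0.65 ± 0.14) and Flt1 (-0.54 ± 0.1) fell with adjusted p of 0.046 and 0.038. Of 19 tested microglial markers 1 fell, Ptprc (-0.41 ± 0.087, adjusted p = 0.047, some spots in a bright region), and none rose (1 at an unadjusted p under 0.05), with summed log2 levels of 5.24 and 5.20 in control and 5.31 and 5.17 in washout, which overlapped. No neuronal marker of 10 tested passed limma's test (2 at an unadjusted p under 0.05), and Snap25, Gad2, Slc17a6, Slc17a7 and Nefl were not well above background on both arrays of either group. Ciliated ependymal genes gave 3 rises among 10, Spag6l (0.77 ± 0.13), Pifo (0.69 ± 0.13) and Tekt1 (0.69 ± 0.13), with adjusted p of 0.028, 0.034 and 0.038, of which 1 was called under median centring, and a summed level of 6.02 and 5.96 in control and 6.40 and 6.25 in washout. Among 6 tested choroid plexus genes 1 rose, Sostdc1, a BMP and Wnt antagonist (0.55, adjusted p = 0.027). Differences in that list were positive for 4 and negative for 2 (median 0.082), and its markers Ttr and Kl were not tested. Of the 20 named calls on markers of other cells, 1 held whichever array was left out (Cspg4). Without control 1, 18 were lost (adjusted p 0.054 to 0.16), 19 without control 2 (adjusted p 0.063 to 0.18), 10 without an Ro array (adjusted p 0.058 to 0.11), 13 without washout 1 (adjusted p 0.052 to 0.14) and 11 without washout 2 (adjusted p 0.055 to 0.086).

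Interferon response genes are switched on by STAT and IRF factors and include antiviral enzymes and sensors. Of 31 tested members 15 fell and 0 rose, with a median of -0.77, and 30 of 31 had a negative difference. The falls numbered 3 without control 1, 5 without control 2, 8 without an Ro array, 4 without washout 1 and 6 without washout 2, and the median ranged from -0.92 to -0.62 over these omissions. At an unadjusted p under 0.05 in limma's test, 22 were lower and 0 higher, where 5698 of all 19636 features passed in either direction. Isg15, a ubiquitin-like protein induced by type I interferon, stood at 1.36 and 0.91 in control, -0.50 and -0.30 in Ro and -0.23 and -0.50 in washout (-1.50 ± 0.18, adjusted p = 0.014). Oas1a, an antiviral synthetase, lay at -2.74 and -2.83 in control, -3.32 and -2.98 in Ro and -3.96 and -4.33 in washout (-1.36 ± 0.17, adjusted p = 0.015). The Ro and washout arrays overlapped for Isg15, and for Oas1a the washout arrays were the lowest. Irf7, the factor that amplifies the response, was at -2.38 and -2.72 in control, -4.13 and -3.78 in Ro and -3.84 and -3.88 in washout (-1.31 ± 0.17, adjusted p = 0.015). The RNA helicase gene Dhx58 (-1.14 ± 0.11), Oasl2 (-1.08 ± 0.16), Xaf1 (-0.81 ± 0.11), the signalling factor Stat2 (-0.60 ± 0.084) and the chemokine Ccl5 (-1.0 ± 0.15) fell with adjusted p from 0.0082 to 0.022.

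Not well above background on either washout array were Oasl1 and the nucleic acid sensor Zbp1, at least 2.72-fold and 2.16-fold lower (adjusted p = 0.044 and 0.048). The 2 control arrays differed from each other for part of the list. Ifit1 was at -0.10 and -0.95 in control and -1.87 and -1.79 in washout, and Usp18, the isopeptidase that removes Isg15, at 0.96 and 0.14 in control and -0.50 and -0.53 in washout. In both control 1 stood well above control 2, and the groups did not pass the test (adjusted p = 0.0501 and 0.072). Ifit3 (-0.83 ± 0.18, adjusted p = 0.0502) and Cmpk2 (-0.027 ± 0.09, adjusted p = 0.87) did not pass, and Gbp2 was the member with a positive difference (0.19 ± 0.13, adjusted p = 0.38). Antigen presentation genes gave 2 falls among 13, both of them immunoproteasome subunits, Psmb8 (-0.72 ± 0.096, adjusted p = 0.017) and Psmb9 (-0.65 ± 0.1, adjusted p = 0.026). Of the 12 interferon and immunoproteasome genes named with a call, 1 held whichever array was left out (Isg15). The lost calls were 8 without control 1 (adjusted p 0.06 to 0.1), 10 without control 2 (adjusted p 0.054 to 0.1), 3 without an Ro array (adjusted p 0.056 to 0.08), 8 without washout 1 (adjusted p 0.052 to 0.14) and 7 without washout 2 (adjusted p 0.051 to 0.14).

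The interferon-stimulated response element, TTTCNNTTTC on either strand, was found upstream of 13 of 24 tested interferon genes with an entry. It was found upstream of 5 of the 11 that fell, and of 3.46% of all genes. Isg15 (chr4:156200819-156201068, minus strand) and Oas1a (chr5:120907526-120907775, minus strand) are printed as members that fell and carry it, in capitals, with overlapping matches joined.
Isg15: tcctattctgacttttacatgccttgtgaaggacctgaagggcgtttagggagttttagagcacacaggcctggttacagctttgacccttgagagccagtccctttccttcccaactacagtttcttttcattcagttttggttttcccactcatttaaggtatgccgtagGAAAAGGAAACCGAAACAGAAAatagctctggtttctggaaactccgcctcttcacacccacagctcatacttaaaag
Oas1a: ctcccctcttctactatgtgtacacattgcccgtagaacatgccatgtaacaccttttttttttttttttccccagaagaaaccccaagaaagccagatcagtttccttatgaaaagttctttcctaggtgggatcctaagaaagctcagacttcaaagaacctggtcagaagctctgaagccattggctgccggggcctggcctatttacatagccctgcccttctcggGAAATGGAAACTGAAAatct

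Astrocyte identity genes were called in both directions. All 38 listed genes were tested, and 4 rose and 3 fell, where 4.32% and 6.31% of all features did. The median was -0.0062, with a sign that changed under normexp background (0.039). The counts of rises and falls depended on the setting, with 2 and 3 under median centring and 5 and 3 with normexp background. They were 1 and 1 with the 4 control and washout arrays alone and 6 and 7 with a trended, robust variance. The glutamate transporter genes Slc1a2 (0.20 ± 0.1, adjusted p = 0.28) and Slc1a3 (-0.023 ± 0.099, adjusted p = 0.9) did not pass the test. Aqp4, the water channel of astrocyte endfeet, lay at 3.99 and 4.01 in control, 2.10 and 2.17 in Ro and 3.22 and 3.64 in washout (-0.57 ± 0.15, adjusted p = 0.073), with both washout arrays between Ro and control. Chrdl1, a BMP antagonist that astrocytes secrete, rose most, with 2.33 and 2.25 in control and 3.32 and 3.22 in washout (0.98 ± 0.093, adjusted p = 0.0087). Gjb6, connexin 30, was at -3.64 and -3.95 in control, -0.36 and -0.32 in Ro and -3.20 and -2.93 in washout (0.73 ± 0.14, adjusted p = 0.039). The ectonucleotidase Entpd2 (0.52 ± 0.076, probe in a bright region) and the synapse-organising protein Sparcl1 (0.41 ± 0.089) were higher, and S100b (-0.71 ± 0.089) and the phagocytic receptor Mertk (-0.49 ± 0.099) lower, with adjusted p of 0.021, 0.049, 0.015 and 0.041. Of the 6 named astrocyte calls, none held whichever array was left out. Lost from these were 5 without control 1 (adjusted p 0.06 to 0.077), 6 without control 2 (adjusted p 0.061 to 0.16), 4 without an Ro array (adjusted p 0.0503 to 0.11), 4 without washout 1 (adjusted p 0.065 to 0.12) and 4 without washout 2 (adjusted p 0.057 to 0.12).

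Circadian clock genes changed in both directions, 5 higher and 3 lower of 17. Arntl, which encodes the activator BMAL1, stood at 1.06 and 0.93 in control, -0.11 and -0.0079 in Ro and 0.10 and 0.20 in washout (-0.84 ± 0.087, adjusted p = 0.01). The repressors Per1 (0.48 ± 0.073, adjusted p = 0.022) and Per2 (0.55 ± 0.1, adjusted p = 0.036) were higher, though another probe of Per2 differed by -0.24. Bhlhe40 (0.90 ± 0.073, adjusted p = 0.0066, a single spot in the bright region of washout 1), Nfil3 (0.86 ± 0.069, adjusted p = 0.0064) and Ciart (0.76 ± 0.081, adjusted p = 0.011), all repressors of the loop, rose as well. Bhlhe41 (-0.63 ± 0.079, adjusted p = 0.015) and Nr1d1 (-0.66 ± 0.13, adjusted p = 0.037), the gene of REV-ERB alpha, fell, and of 2 other Nr1d1 probes 1 differed by 0.79 upwards. Clock (0.078 ± 0.074) and Dbp (-0.31 ± 0.12) did not pass (adjusted p = 0.54 and 0.17). The hour of harvest is not given in the labels. Of the 8 named clock calls, 1 held whichever array was left out (Bhlhe40). The calls lost were 5 without control 1 (adjusted p 0.052 to 0.12), 7 without control 2 (adjusted p 0.051 to 0.15), 3 without an Ro array (adjusted p 0.064 to 0.078), 2 without washout 1 (adjusted p 0.06 to 0.097) and 2 without washout 2 (adjusted p 0.057 to 0.098).

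Growth factors and the pathways they feed were called in both directions. In the list of 21 growth factors and IGF-binding proteins 1 was higher and 6 were lower, among the latter Fgf1, a fibroblast growth factor, with -1.10 and -1.29 in control, -3.77 and -3.92 in Ro and -2.59 and -2.46 in washout (-1.33 ± 0.11, adjusted p = 0.0065). Others were Igfbp3 (-0.66 ± 0.089), Igfbp2 (-0.53 ± 0.091) and Tgfa (-0.75 ± 0.13, above background on 1 of the washout arrays), with adjusted p of 0.017, 0.029 and 0.03. In the Notch list 5 of 13 fell and 1 rose. The ligand Jag2 was at least 2.5-fold lower (adjusted p = 0.0098), Jag1 fell by 0.61 ± 0.085 (adjusted p = 0.018), the feedback inhibitor Nrarp fell by 1.00 ± 0.14 (adjusted p = 0.02) and Dll3 fell by 0.59 ± 0.076 (adjusted p = 0.015), while the ligand Dll1 rose by 0.55 (adjusted p = 0.015). Of 20 BMP and TGF-beta genes 3 rose and 2 fell. Smad7, an inhibitory SMAD (0.61 ± 0.093), Bmp7 (0.53 ± 0.1) and Id1, a BMP target (0.39 ± 0.066), rose with adjusted p of 0.022, 0.039 and 0.028, and Bmper (-0.74 ± 0.1, adjusted p = 0.017) and Tgfb1 (-0.65 ± 0.1, adjusted p = 0.024) fell. Integrin and focal adhesion genes gave 7 falls and 1 rise among 25. Itga5 (-0.85 ± 0.1), Cav1, caveolin 1 (-0.80 ± 0.067), Itgb3 (-0.77 ± 0.15) and Itga8 (-0.76 ± 0.088) were lower with adjusted p of 0.013, 0.0072, 0.038 and 0.012. Itga4 was at least 1.4-fold lower (adjusted p = 0.014), and Itgb4 rose (0.95 ± 0.11, adjusted p = 0.013). Of the 20 growth and signalling genes named with a call, 1 held whichever array was left out (Fgf1). Without control 1, 14 were lost (adjusted p 0.054 to 0.14), 19 without control 2 (adjusted p 0.053 to 0.13), 6 without an Ro array (adjusted p 0.057 to 0.083), 12 without washout 1 (adjusted p 0.052 to 0.12) and 5 without washout 2 (adjusted p 0.064 to 0.096).

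Most of the other large falls belonged to no list. Klk8, a serine protease, was at -2.39 and -2.07 in control, -5.23 and -5.13 in Ro and -4.37 and -4.52 in washout (-2.22 ± 0.13, adjusted p = 0.0041). Chgb, a protein of secretory granules, was at 3.50 and 3.47 in control, 0.026 and 0.14 in Ro and 1.76 and 1.66 in washout (-1.78 ± 0.079, adjusted p = 0.0031). In both the washout arrays lay between Ro and control. Mgp, matrix Gla protein, an inhibitor of calcification, was at 0.69 and 1.09 in control, 0.83 and 0.91 in Ro and -0.72 and -0.93 in washout (-1.71 ± 0.16, adjusted p = 0.0082), low in washout alone. Foxf2, a forkhead factor of mural and mesenchymal cells (-1.64 ± 0.13, adjusted p = 0.0064), Itga11, a collagen receptor of the integrin list (-1.53 ± 0.19, adjusted p = 0.014), Scube1, a secreted membrane-bound glycoprotein (-1.62 ± 0.18, adjusted p = 0.012), and Gng13, a G protein subunit (-1.87 ± 0.22, adjusted p = 0.013), also fell. So did Cygb, cytoglobin (-1.67 ± 0.11, adjusted p = 0.0052, with 6 of 20 dim spots around its probe raised on the washout slide), and G0s2, an inhibitor of lipolysis (-1.59 ± 0.18, adjusted p = 0.012). Of the 9 calls on these genes, 5 held whichever array was left out (Klk8, Chgb, Mgp, Cygb and Foxf2). The lost calls were 2 without control 1 (adjusted p 0.058 to 0.064), 4 without control 2 (adjusted p 0.06 to 0.076) and 2 without washout 1 (adjusted p 0.0501 to 0.058).

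Genes not well above background in 1 group are given as bounds. On the high side Prss2, a pancreatic trypsinogen, was at least 6.26-fold higher in washout, Adgb at least 4.49-fold, Spag11a at least 4.42-fold, Muc15 at least 4.17-fold and Ces1e at least 3.03-fold (adjusted p 0.0075, 0.028, 0.023, 0.0052 and 0.026). Their probes lay outside bright regions, but 4 of 19 dim spots around Prss2, 5 of 24 around Muc15 and 5 of 24 around Ces1e were raised more than 4-fold on the washout slide, where 4.56% of all dim spots were, against 1 of 20 around Adgb and 0 of 17 around Spag11a. The part of the slide in these rises was not tested. On the low side Matn3, a cartilage matrix protein, was at least 2.97-fold lower, Tmem154 2.88-fold and the GABA transporter gene Slc6a11 2.57-fold (adjusted p 0.0052, 0.0075 and 0.035). Of the 8 named calls of this kind, 3 held whichever array was left out (Muc15, Matn3 and Tmem154). Lost from these were 4 without control 1 (adjusted p 0.081 to 0.12), 5 without control 2 (adjusted p 0.051 to 0.079), 2 without an Ro array (adjusted p 0.0503 to 0.052), 2 without washout 1 (adjusted p 0.069 to 0.1) and 3 without washout 2 (adjusted p 0.06 to 0.098).

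None of 32 ribosomal protein genes, 25 oxidative phosphorylation genes (median -0.068), 14 heat shock genes or 10 chemokine and inflammation genes passed limma's test. The counts at an unadjusted p under 0.05 were 0, 1, 4 and 3, where 5698 of all 19636 features passed. In the chemokine and inflammation list those 3 were higher, and quantile normalization called 2 members higher and 0 lower. Of the 20 genes in that list 10 were not tested, among them Il6, Il1b and Tnf. Of 34 cell cycle genes Cdc6, a replication licensing factor, rose (0.73 ± 0.095, adjusted p = 0.016). Of 23 cholesterol synthesis genes the regulator Insig1 fell (-0.67 ± 0.13, adjusted p = 0.036), and of 12 glutathione genes Nqo1 fell (-0.75 ± 0.082, adjusted p = 0.011). Among 19 p53 targets Plk2 rose (0.68 ± 0.12, probe in a bright region), and Bbc3 (-0.88 ± 0.09), Perp (-0.74 ± 0.077) and Tnfrsf10b (-0.43 ± 0.089) fell, with adjusted p of 0.028, 0.01, 0.01 and 0.045. Among 19 ATF4 response genes Atf4 (0.55 ± 0.073), Psat1 (0.49 ± 0.094) and Aldh1l2 (0.34 ± 0.067) rose with adjusted p of 0.017, 0.038 and 0.04, of which 1 was called under median centring. Chac1 (-0.75 ± 0.14, adjusted p = 0.036) and Slc7a1 (-0.60 ± 0.08, adjusted p = 0.017) fell. A test that misses its threshold does not show that these groups were alike. Of the 12 named calls in these lists, none held whichever array was left out. The calls lost were 10 without control 1 (adjusted p 0.054 to 0.15), 12 without control 2 (adjusted p 0.062 to 0.15), 6 without an Ro array (adjusted p 0.065 to 0.1), 9 without washout 1 (adjusted p 0.055 to 0.12) and 3 without washout 2 (adjusted p 0.062 to 0.092).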

How the data were processed

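RNA of astrocyte cultures was hybridised to 6 one-colour Agilent arrays. Per the file headers, the authors' scanner files hold spot intensities processed with Agilent Feature Extraction 10.5.1.1; the submitters' processing notes give version 10.1. The deposited table of the authors holds linear ratios centred per probe, with array medians of 0.987, 0.945, 0.948, 0.973, 0.871 and 0.938 in the order control, Ro, washout. Its log2 values correlated with the probe-centred levels at r of 0.999 or more, which fixes their direction but not their slope. The deposited table served as an alternative, and its scaling rule is not given in the sources used here. The processed intensity of non-control probes was scaled to the 75th percentile of its array and put on the log2 scale, and outlier flags were left out, which removed 106 of 41174 probes. Of the probes left, 25912 were well above background on both control or both washout arrays. The brightest probe of a gene over the 4 arrays stood for it, and 12858 of 19636 features had a symbol. limma 3.58.1 (R 4.3.3) fitted 1 mean per group over all 6 arrays, with Benjamini-Hochberg adjustment over all features and a threshold of 0.05. The fit had 3 residual degrees of freedom, and the number of arrays limits precision. The test was checked on simulated data. A gene not well above background in 1 group was given as a bound, the bright group against the higher of the lowest signal well above background and the dim probe's own. A bright region is where dim spots within 15 rows and 7 columns had a median above the other arrays by over 0.5 on the log2 scale. Dim spots around a probe are those within 3 rows and columns, raised if by over 2 in washout. Summed levels are the log2 of the sum over a list. Named genes were the 12 largest rises and falls measured in both groups outside bright regions, up to 6 bounds per direction, up to 6 calls per direction of each of 37 lists, fixed pathway and astrocyte genes, and other members of the main lists; some of these are not reported here. Members and lists were chosen with earlier results of these data known. Alternatives were another background correction, scalings, filters, variance models, probe choices, a replicate block, and each array left out; leaving out bright spots but keeping a probe's other spots was added after seeing the data. Promoter sequences are RefSeq's, from a table of 27025 genes (GRCm38.p6). Entries of 1 chromosome were left out of it, and members without an entry, Egr1 among them, were not searched.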

Additional observations from a re-analysis of the deposited data

How the results depend on the processing

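No named call changed direction under any alternative that gave it a value. The counts of higher and lower features, 848 and 1240, were 402 and 582 with the 4 control and washout arrays alone, 64 and 78 with no filter on dim probes, 492 and 768 with array weights, and 370 and 585 with a replicate block. They were 175 and 254 at a 2-fold minimum and 1359 and 1561 with a trended, robust variance. Leaving out 1 array gave 91 to 624 higher and 121 to 785 lower. The labels do not say whether a replicate number marks a shared preparation. The differences between replicates 1 and 2 correlated at 0.085 between control and washout, -0.14 between control and Ro and -0.13 between Ro and washout. These values cannot decide it, since noise between arrays can hide a small shared effect. Of 192 named calls, 125 held with the replicate block, 28 with no filter, 129 with the 4 arrays alone, 154 with array weights, 168 with normexp background, 176 with median centring and 172 in the authors' deposited table. Leaving out either Ro array changes no control or washout value, and the Ro array that is left adds nothing to the spread. That fit is therefore the same as the fit of the 4 arrays alone. Only the estimate of the spread and its degrees of freedom differ there from the main fit. The cause of the other losses was not tested. Genes that were not called changed sign around 0 on the log2 scale. With the probes of a gene averaged the value was 0.0079 for Cmpk2, -0.073 for Gfap, -0.022 for Slc1a2, -0.0065 for Sparc and -0.066 for Spry2. With normexp background the value was 0.0066 for Ctnnb1 and 0.021 for Slc1a3. With quantile normalization the value was 0.0053 for Ctnnb1, -0.011 for Gsk3a and 0.026 for Vim. In the authors' deposited table the value was -0.0058 for Gfap, -0.044 for Gsk3a and -0.028 for Sparc. With median centring the value was -0.031 for Gsk3a and -0.016 for Sparc. With 1 array left out the range was -0.11 to 0.061 for Cmpk2, -0.027 to 0.0088 for Ctnnb1, -0.031 to 0.14 for Gfap, -0.13 to 0.17 for Gsk3a, -0.37 to 0.049 for Gsk3b, -0.96 to 0.35 for Lgr6, -0.11 to 0.061 for Slc1a3, -0.017 to 0.084 for Sparc and -0.27 to 0.14 for Vim. The arrays' background limits genes near it, and slide and age cannot be told apart from washout.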
